A study of Mus musculus with 5 samples.

Results

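PEP1_S100a11.Tagln2 is a class of peptidergic sensory neurons of the mouse lumbar dorsal root ganglion. Its members were the cells that carry this name in the annotation deposited by the authors, 181 of 3352 cells spread over 14 types, 12 of them neuronal. The name joins a peptidergic class with its marker genes S100a11 and Tagln2. By its stated design, the experiment was made to describe the neurons of this ganglion. Lumbar ganglia were taken from 5 adult wild type mice of strain C57BL/6, of both sexes and all untreated. The ganglia were dissociated with enzymes and by trituration, and single cells were profiled with droplet 3′ RNA sequencing. The deposited values are counts of unique molecular identifiers (UMIs), each standing for 1 captured mRNA molecule. The cells fall into 5 libraries, called A to E here and each taken as 1 mouse. There was 1 condition, so every comparison was between cell types of the same mice.

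Libraries A to E held 164, 539, 474, 805 and 1370 cells, of which 10, 31, 19, 36 and 85 belonged to the type. UMIs of these cells were added up within each library, which gave sums of 602660, 2155804, 950794, 2161618 and 3796817 UMIs, and these 5 sums are the replicates. Their median depths per cell were 37123, 62940, 50827, 57012.5 and 42820 UMIs. Library A therefore rested on the fewest cells and had the lowest median depth, and library E rested on the most cells. Levels are given in CPM, the counts of a gene scaled to the same UMI total for every sum, and a mean is followed by its SD over the 5 libraries. Of 3345 distinct cell barcodes, 7 occurred in more than 1 library, and 0 of these marked a cell of the type.

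Peptidergic nociceptors are small-diameter sensory neurons with thin, slowly conducting fibres that respond to noxious heat, chemicals and pressure. They release peptides such as substance P, made from the Tac1 precursor, and CGRP, made from the Calca precursor, in the spinal cord and from their peripheral endings. S100A11 is a small calcium-binding protein that partners with annexins at membranes, and transgelin-2 (Tagln2) binds and stabilises actin filaments.

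S100a11, Tagln2 and Tac1 were high in every library of the type. S100a11 stood at 1283, 934, 969, 1132 and 819 CPM in libraries A to E, against 140.2 to 231 CPM in the other neurons of the same libraries. Tagln2 stood at 1233, 1338, 1135, 1209 and 1261 CPM, against 269 to 499.6 CPM. Tac1 stood at 8132, 4603, 7496, 7012 and 4927 CPM, against 612 to 945 CPM. For all 3 genes the lowest library of the type lay above the highest library of the other neurons, and the type had the highest mean of the 14 types. Tagln2 varied least over the libraries (1235 ± 74.0 CPM), while Tac1 was lower in libraries B and E than in the other three (6434 ± 1579 CPM). S100a11 lies on chromosome 3 at 93520488 to 93526287 (plus strand), Tagln2 on chromosome 1 at 172500047 to 172507380 (plus strand) and Tac1 on chromosome 6 at 7554879 to 7565834 (plus strand), in the mouse GRCm38/mm10 assembly with GENCODE M21 genes.

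The label names S100a11 and Tagln2, so how often its cells show these genes describes the label and does not test it. A UMI of S100a11 was found in 181 of 181 cells of the type, one of Tagln2 in 99.4 percent and one of Tac1 in 99.4 percent, and all 3 together in 179 of 181 cells (98.9 percent, against 34.3 percent of the other neurons). With each cell thinned to 10000 UMIs, S100a11 and Tagln2 were still seen in 99.4 and 99.4 percent of the type's cells and Tac1 in 99.4 percent. Satellite glia, the cells that wrap the neurons, are no empty background for the first pair: their shares were 98.8 percent for S100a11, 94.4 percent for Tagln2 and 39.0 percent for Tac1 (94.0, 86.7 and 28.1 percent when thinned), at a median depth of 17729 UMIs against 49113 UMIs in the type. Of the 2 most similar types, PEP1_Slc7a3.Sstr2 had S100a11 at 674 to 945 CPM and Tac1 at 4156 to 6804 CPM, ranges that overlap those of the type, and neither gene was called different from it (log2 fold changes 0.47 ± 0.15 and 0.21 ± 0.18, the error being the SE). Compared within libraries, S100a11 was higher in the type than in PEP1_Slc7a3.Sstr2 in every library, and Tac1 in all but library E. Tagln2 is the marker whose range parted the type from both peptidergic neighbours, with 254 to 412 CPM in PEP1_Slc7a3.Sstr2 and 175 to 298 CPM in PEP1_Dcn. Against PEP1_Dcn, S100a11 (0.54 ± 0.15) and Tac1 (0.89 ± 0.22) were not called either, although both were higher in the type in every library. Tac1 was called (1.06) once the PEP1_Dcn sum of 4 cells in library A was left out.

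**Figure D1:**
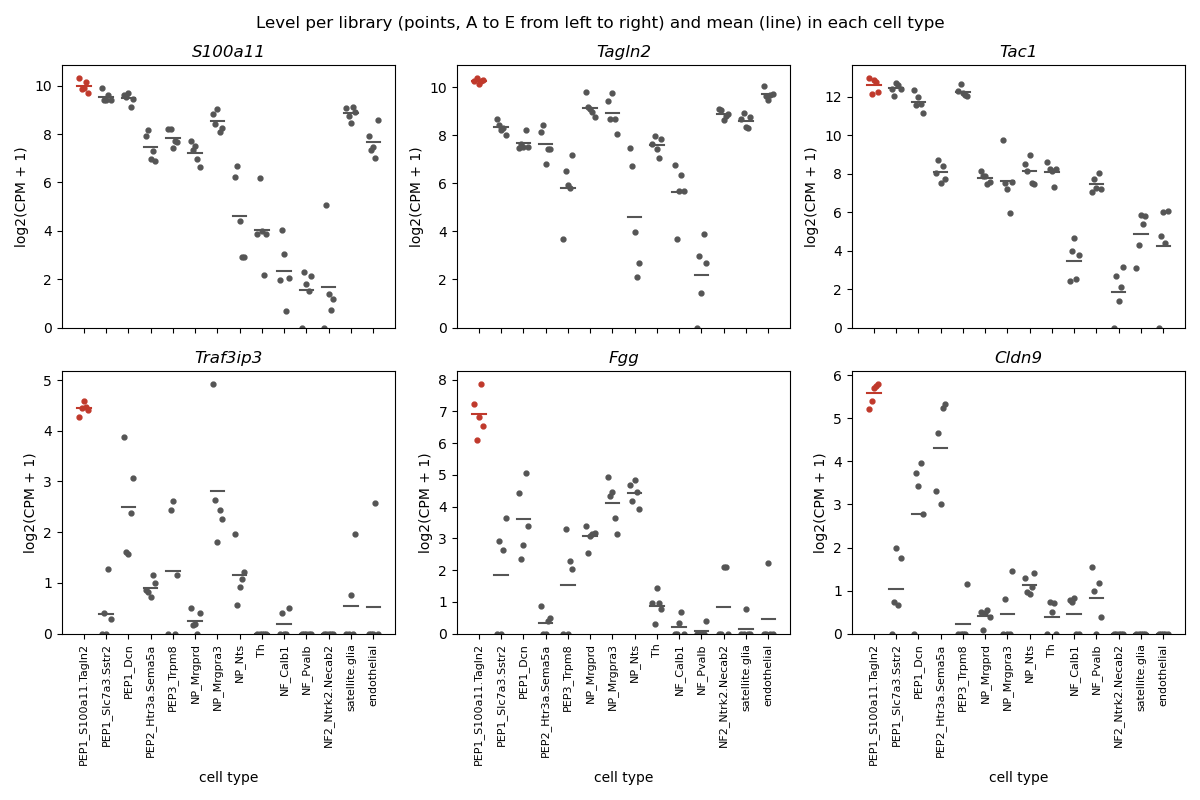
Levels of S100a11, Tagln2, Tac1, Traf3ip3, Fgg and Cldn9 in the 14 annotated cell types, as log2(CPM + 1) of the UMIs summed per library. Points are libraries A to E from left to right, lines are means of the log2 values, and PEP1_S100a11.Tagln2 is in red. The type has the highest mean CPM for S100a11 (1027), Tagln2 (1235) and Tac1 (6434), and its Fgg level (130.6 CPM) is 6.22 times that of the next neuronal type.

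General neuronal genes were at the level of other sensory neurons. The 8 neuron markers, among them Tubb3 and Stmn2 of the microtubule system, summed to 11980.0, 11530.0, 12550.0, 11520.0 and 10400.0 CPM in libraries A to E, and to 11470.0 ± 458 CPM in the other neurons, and 0 of 8 were called in either direction there. The 7 peptidergic markers summed to 26310.0, 16720.0, 24130.0, 25280.0 and 18520.0 CPM, against 4480.0 ± 504 CPM in the other neurons. Of these 7, 5 were called higher, among them Calca, Tac1, Adcyap1 and Trpv1, and 0 lower, with a list median of 2.18, while Calcb and Gal were not called. Libraries B and E had the lowest peptidergic sums, and each still exceeded the highest sum of the other neurons. The sum does not single out this type: it was 19320 ± 2595 CPM in PEP1_Slc7a3.Sstr2 and 17870 ± 3145 CPM in PEP1_Dcn, with ranges that overlap those of the type. Calca (13440 CPM) and Tac1 (6434 CPM) made up most of it in the type.

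The type made up 6.10, 5.75, 4.01, 4.47 and 6.20 percent of the cells of libraries A to E (mean 5.31 percent, SD 1.00). The exact 95 percent binomial intervals of these shares all overlapped, from 2.96 to 10.9 percent in library A to 4.99 to 7.62 percent in library E, and cover counting error only. As a share of neurons the values were 7.04, 6.60, 5.03, 5.03 and 6.34 percent.

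Cells of the type carried fewer UMIs than the other neurons of their library in 5 of 5 libraries. The log2 ratio of median UMIs per cell was -1.22, -0.40, -0.34, -0.11 and -0.48 in libraries A to E (mean -0.51, SD 0.42), and with the mean in place of the median it was -0.59, -0.36, -0.53, -0.22 and -0.59 (mean -0.46), so library A stood apart with the median alone. The exact two-sided sign-flip test over 5 libraries gave p = 0.0625, which is the smallest p that 5 libraries allow, and 0.1875 after Benjamini-Hochberg adjustment over the 6 such tests, so no result of this kind can pass 0.05. Against PEP1_Slc7a3.Sstr2 the mean log2 ratio was 0.17 (exact p = 0.5, adjusted 0.5625), with library A alone below zero, and against PEP1_Dcn it was -0.22 (exact p = 0.1875, adjusted 0.375). At an equal depth of 10000 UMIs the number of genes detected per cell hardly differed from other neurons, with a mean log2 ratio of 0.0135 (exact p = 0.25, adjusted 0.375). It was -0.0141 against PEP1_Slc7a3.Sstr2, lower in 5 of 5 libraries (exact p = 0.0625, adjusted 0.1875), and -0.00915 against PEP1_Dcn (exact p = 0.5625, adjusted 0.5625). These small contrasts moved with the summary used. With the mean in place of the median, UMIs per cell against PEP1_Slc7a3.Sstr2 stood at 0.40, higher in 5 of 5 libraries (exact p = 0.0625), and UMIs per cell against PEP1_Dcn at -0.04, and leaving out 1 library the medians gave 0.09 to 0.38 and -0.29 to -0.02, with library A left out at the upper end of both. Thinning to 20000 UMIs left out 11 cells of the type, 89 other neurons, 19 cells of PEP1_Slc7a3.Sstr2 and 4 of PEP1_Dcn, while 10000 UMIs kept all cells. At 20000 UMIs, the number of genes gave 0.0244 against other neurons, higher in 5 of 5 libraries (exact p = 0.0625), -0.00520 against PEP1_Slc7a3.Sstr2, lower in 4 (exact p = 0.3125), and -0.00302 against PEP1_Dcn (exact p = 0.875). With the mean at 10000 UMIs, the number of genes gave 0.00491 against other neurons (exact p = 0.5625), and leaving out 1 library the genes detected per cell at equal depth against PEP1_Dcn had -0.0211 to -0.00333.

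The first comparison asked which genes separate the type from the remaining 2866 neurons of the 11 other neuronal types, summed per library. Genes called higher included peptide precursors such as Tac1 and Calca and receptors such as Gfra3, Oprk1 and Sstr1, while other members of the same families were lower or not called. The type was poor in genes of large myelinated neurons, of C-low-threshold mechanoreceptors and of Mrgprd nociceptors, classes that the pooled other neurons hold. Of 11763 genes tested, 443 (3.77 percent) were called higher and 522 (4.44 percent) lower. A gene was called where edgeR's quasi-likelihood test gave a Benjamini-Hochberg adjusted p below 0.01, the levels differed at least 2-fold, and at least 25 percent of the cells of the higher group had a UMI. The types came from clusters of the same cells by their expression, so a call describes the size of a difference and its agreement over mice, and does not test that the type exists.

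Traf3ip3, a protein that binds the signalling adaptor TRAF3, had the largest log2 fold change among the genes called higher. It stood at 18.2, 20.9, 23.1, 21.3 and 20.3 CPM in libraries A to E and at 0.589 to 2.00 CPM in the other neurons (4.66 ± 0.27, log2 fold change ± SE). Fgg, the gamma chain of fibrinogen, stood at 149, 66.8, 112, 232 and 92.5 CPM against 4.50 to 8.71 CPM (4.32 ± 0.30). The Fgg values spread widely, with library D highest and library B lowest, yet the lowest of them lay far above every library of the other neurons. Cldn9, a claudin of tight junctions, stood at 36.5, 41.3, 51.5, 52.7 and 54.8 CPM against 1.33 to 3.53 CPM (4.14 ± 0.22). Oprk1, the kappa opioid receptor, stood at 23.2, 13.9, 12.6, 25.4 and 14.5 CPM against 0.5 to 1.64 CPM (4.07 ± 0.30), and Lef1, a transcription factor of the Wnt pathway, at 33.2, 22.7, 32.6, 23.6 and 25.8 CPM against 1.08 to 2.66 CPM (3.82 ± 0.27). In each of these 5 genes the groups did not overlap in any library. They were named for the largest changes with the same sign in every library, so this follows in part from the choice. How many other called genes also did not overlap is not given here. Traf3ip3 lies on chromosome 1 at 193175453 to 193201703 (minus strand), Fgg on chromosome 3 at 83007724 to 83015049 (plus strand) and Cldn9 on chromosome 17 at 23682584 to 23684026 (minus strand).

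The rest of the 10 largest changes came from genes at low levels. They were Prr15 (8.61 ± 4.73 CPM, log2 fold change 4.11 ± 0.31), Calcrl, the receptor that forms the CGRP receptor together with RAMP1 (10.7 ± 1.98 CPM, 3.88 ± 0.23), and Ddit4l, a relative of the stress-induced mTOR inhibitor REDD1 (11.1 to 17.4 CPM, 3.68 ± 0.37). Insrr, an orphan relative of the insulin receptor, stood at 8.15 ± 2.25 CPM (3.63 ± 0.29), and Rasef, a Rab-family GTPase, at 10.3 ± 1.20 CPM (3.57 ± 0.26). Other neurons averaged 0.606 (Prr15) to 1.28 CPM (Ddit4l) for these 5 genes.

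A sum over other neurons weighs each type by its UMIs. An alternative changed the weights and the fit together: it counted each of the 11 types equally and used limma-trend on log2(CPM + 1), a scale that shrinks low genes, in place of edgeR on counts. It called 235 genes higher, 212 of them among the 443 (47.9 percent), and 603 lower. The share of calls that were higher was 28.0 percent in place of 45.9 percent, and the median log2 fold change of all genes -0.125 in place of -0.004. How much of this came from the weights and how much from the fit was not tested. Without a filter on low counts, with edgeR, that median was -0.164. With types counted equally in this way, the log2 fold changes were 2.14 for Tac1, 3.05 for Traf3ip3, 3.55 for Cldn9, 2.19 for Prr15, 2.89 for Oprk1, 2.58 for Calcrl, 2.64 for Ddit4l, 2.17 for Insrr and 2.40 for Rasef, and all 9 stayed called.

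At the other end, several genes of other neuron classes were missing from the type or nearly so. No UMI of Fat3, an atypical cadherin, was counted in its 181 cells, while other neurons had 18.7 ± 5.41 CPM, which puts Fat3 at least 52.7-fold lower (3 UMIs over the pooled type as the floor). Ntrk3, the receptor for neurotrophin-3, had 3 UMIs in the type and was 163-fold lower (95 percent counting interval 55.9 to 792). Kcns1, a silent potassium channel subunit of large neurons, had 2 UMIs (96.8-fold lower, 26.8 to 800.0). A single UMI was left of Zfp521, a zinc finger factor (199-fold lower, 35.7 to 7870.0), and likewise of Gm11549 (153-fold, 27.4 to 6040.0), Tmem72 (102-fold, 18.3 to 4030.0), the kallikrein Klk5 (93.6-fold, 16.8 to 3700.0) and the docking protein Dok5 (92.3-fold, 16.6 to 3650.0). With types counted equally these folds were smaller, with log2 fold changes of -4.85 for Fat3, -6.00 for Ntrk3, -4.86 for Kcns1, -5.11 for Zfp521, -4.26 for Gm11549, -4.13 for Tmem72, -1.69 for Klk5 (in place of -6.31) and -2.64 for Dok5 (in place of -6.25). Klk5 was highest in NP_Mrgprd (20.7 CPM), and no other type passed 4.47 CPM. Mcam, an adhesion molecule, stood at 0.449 ± 0.507 CPM against 44.0 ± 14.9 CPM (-6.64 ± 0.51; -5.78 with types counted equally). For genes called lower, the minimum share of cells applies to the other neurons, and without it 912 genes in place of 522 were called lower.

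A gene can be high against the pooled neurons and still be shared with another type, so each gene of at least 20 CPM was also ranked over the 12 neuronal types. Of 5544 such genes, 215 were highest in the type, and 9 of these were at least 2-fold above the next type. Fgg led by the widest margin, 6.22 times the level of NP_Nts neurons, and was highest in 5 of 5 libraries. Traf3ip3 followed at 2.30 times NP_Mrgpra3 (highest in 4 libraries), whose mean rests on 29.4 CPM from 4 cells in library A, with 2.51 to 5.17 CPM in the other four. Next came Igfbp2, which binds insulin-like growth factors, at 2.28 times Th neurons, Tagln2 at 2.11 times NP_Mrgprd, Comp, a cartilage matrix protein, at 2.05 times and Cldn9 at 2.03 times PEP2_Htr3a.Sema5a, all 4 in 5 of 5 libraries. Igfbp2 stood at 134, 92.8, 94.7, 179 and 108 CPM in libraries A to E and at 12.4 to 16.3 CPM in other neurons (3.15 ± 0.17), with no overlap. It was named for its margin over the next type, so a wide gap follows in part from the choice. Below the 2-fold mark came Kctd11 (1.95 times, highest in 5 libraries), the somatostatin receptor Sstr1 (1.89 times, 4 libraries), the prostaglandin E2 receptor Ptger1 (1.71 times, 5 libraries) and Plekhf1 (1.66 times, 4 libraries). The ranking leaves out satellite glia, which had more Kctd11 (57.6 CPM, 39.2 CPM in the type) and Plekhf1 (191 CPM, 63.5 CPM in the type). They had hardly any Sstr1 or Ptger1. The interferon-induced genes Ifit3b (2.20 times) and Ifit3 (2.02 times) led in 4 libraries, and as near-identical copies their counts may not be told apart. Hbb-bs, Hba-a1 and Apoe also entered this ranking (2.24, 1.79 and 1.78 times) but were highest in 1, 1 and 2 libraries, and are taken up with the markers of other cells. Comp rested on 16.6, 54.3, 68.4, 25.9 and 24.8 CPM, with libraries B and C high.

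Of 20 precursors in the data, 11 had enough counts to test, and 4 of these were called higher than in other neurons and 0 lower (list median 0.22, all genes -0.004). Calca, the CGRP alpha precursor, stood at 15990.0, 10240.0, 13600.0, 15700.0 and 11660.0 CPM in libraries A to E and at 2251 to 2952 CPM in other neurons (2.46 ± 0.15). As with Tac1, libraries B and E were lowest and no library overlapped with the other neurons. Adcyap1, the precursor of PACAP, stood at 202, 134, 177, 251 and 174 CPM against 41.2 to 58.2 CPM (1.96 ± 0.16). Cartpt, the CART precursor, stood at 370.3 ± 108 CPM against 130.3 ± 45.6 CPM (1.57 ± 0.22). Types counted equally gave 1.11 for Adcyap1 and 0.80, no longer called, for Cartpt.

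Precursors that were not called included 3 well expressed ones. Calcb, the second CGRP precursor, was at 595 ± 131 CPM against 531 ± 32.7 CPM, neuromedin B (Nmb) at 587 ± 115 CPM against 512 ± 36.8 CPM, and galanin (Gal) at 176 ± 49.1 CPM against 218 ± 26.0 CPM. Peptides of other nociceptor classes were close to zero: Nppb at 0.263 ± 0.455 CPM, somatostatin (Sst) at 0.475 ± 0.802 CPM and Penk at 0 in 5 of 5 libraries, against 59.7 ± 33.5, 107 ± 87.4 and 15.2 ± 6.33 CPM in other neurons. Neurotensin (Nts) was at 21.3 CPM in library B and at 0.263 CPM or less in the other four.

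Genes that sort, process and release peptides moved both ways. Of 15 tested, 2 were called higher, 3 lower and 10 not called (median -0.14). Scg2, the granin secretogranin II, stood at 1402, 971, 2336, 1211 and 1078 CPM against 276 to 501 CPM (1.96 ± 0.23), with library C highest, and Rab27a, a GTPase of secretory vesicles, at 36.6 ± 7.08 CPM against 13.9 ± 1.89 CPM (1.43 ± 0.15). Scg3, another granin, was low at 175 ± 28.8 CPM against 802 ± 86.8 CPM (-2.14 ± 0.13), as was carboxypeptidase E (Cpe), which trims peptide ends, at 258 ± 38.9 CPM against 809 ± 82.1 CPM (-1.59 ± 0.12). Rab27b stood at 66.0 ± 11.9 CPM against 152 ± 34.2 CPM (-1.15 ± 0.17). The convertase Pcsk2 (170.4 ± 77.2 CPM) and the convertase inhibitor Pcsk1n (4098 ± 612 CPM) were not called. With types counted equally the values were 1.31 for Scg2, -1.36 for Scg3 and -0.03, not called, for Rab27b.

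Of 20 receptors for growth factors and cytokines tested, 5 were called higher and 2 lower (median 0.54). Most of those named here are shared with the other PEP1 types and do not single out this one. Gfra3, the artemin receptor, stood at 533, 315, 695, 555 and 380.3 CPM against 57.6 to 86.5 CPM (2.87 ± 0.19, 2.01 with types counted equally). The interleukin-4 receptor Il4ra stood at 60.2 ± 22.3 CPM (1.55 ± 0.20), the stem cell factor receptor Kit at 45.0 ± 10.7 CPM (1.30 ± 0.18) and the oncostatin M receptor Osmr at 74.2 ± 17.2 CPM (1.00 ± 0.20). In PEP1_Slc7a3.Sstr2 and PEP1_Dcn, Gfra3 was at 435 and 385.5 CPM, Il4ra at 71.7 and 62.2 CPM and Kit at 97.9 and 79.8 CPM, and Osmr was lower at 7.33 and 10.7 CPM. Kit was called different from the type in PEP1_Slc7a3.Sstr2 but not in PEP1_Dcn. Kit was not called with types counted equally (0.82). Osmr sat on the 2-fold limit and lost its call under most alternatives, down to 0.83 without library B: it was 0.97 with RLE size factors, 0.92 without a filter, 0.97 in DESeq2, 0.95 without the cells above 10 percent mitochondrial UMIs, 0.98 without the cells highest in satellite glia markers, 0.85 with types counted equally, 0.92 without library A and 0.90 without library C. Ntrk3 and the neurturin receptor Gfra2 were called lower, and Gfra2 was at 21.3 CPM in library B and 1.05 CPM or less in the others, against 102 ± 12.1 CPM in other neurons. Not called were the low-affinity neurotrophin receptor Ngfr (241 ± 36.3 CPM against 210.4 ± 66.1 CPM), the LIF receptor Lifr (214 ± 18.3 against 209.6 ± 17.9 CPM) and Ret (161 ± 16.9 against 252 ± 34.7 CPM).

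Among G protein-coupled receptors 10 of 38 tested were called higher and 6 lower (median 0.11). Sstr1 was at 31.5, 49.6, 50.5, 22.7 and 42.9 CPM in libraries A to E against 2.88 to 4.84 CPM (3.48 ± 0.21), the neuropeptide Y receptor Npy1r at 113, 121, 92.5, 117 and 115 CPM against 24.0 to 33.3 CPM (2.05 ± 0.12), and the muscarinic receptor Chrm2 at 13.3, 8.81, 13.7, 11.1 and 8.16 CPM against 0.792 to 2.54 CPM (3.16 ± 0.34). None of these ranges overlapped, and the galanin receptor Galr1 (10.5 ± 6.39 CPM, 2.14 ± 0.36) was also higher in 5 of 5 libraries. Also called higher were Ptger1 at 66.4, 59.4, 70.5, 87.9 and 68.7 CPM against 10.8 to 19.1 CPM (2.43 ± 0.16), the lysophosphatidic acid receptor Lpar1 at 86.3, 75.2, 139.9, 98.5 and 95.3 CPM against 11.3 to 19.7 CPM (2.83 ± 0.19), the sphingosine-1-phosphate receptor S1pr3 at 94.1 ± 14.3 CPM (1.46 ± 0.17) and the prostacyclin receptor Ptgir at 50.5 ± 7.87 CPM (1.34 ± 0.20). Other lipid receptors of the list were called lower (Ptgdr and Lpar3) or not called, among them Ptger3, Ptger4, S1pr1, S1pr2 and Cysltr2. With types counted equally, Ptgir and S1pr3 were not called (0.90 and 0.90), and Sstr1, Npy1r, Chrm2 and Galr1 had 2.43, 1.24, 2.25 and 1.34.

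Of the 6 receptors called lower, Mrgprd, the receptor that names the Mrgprd nociceptors, was at 23.2 CPM in library B and 2.11 CPM or less elsewhere, against 100.1 ± 16.4 CPM. The lysophosphatidic acid receptor Lpar3 was at 3.39 ± 3.32 CPM against 132 ± 40.4 CPM, the purine receptor P2ry1 at 0.845 ± 1.04 CPM against 57.0 ± 25.2 CPM (-6.22 ± 0.56), and the adenosine receptor Adora1 at 8.29 ± 2.86 CPM against 66.4 ± 9.32 CPM (-2.83 ± 0.18). The prostaglandin D2 receptor Ptgdr (-2.60 ± 0.28) and the prokineticin receptor Prokr1 completed the group. The mu opioid receptor Oprm1 was not called, at 2.30 ± 1.81 CPM against 1.63 ± 0.386 CPM, and Ramp1, the partner of Calcrl, had too few counts to test (0.238 ± 0.402 CPM).

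**Figure D2:**
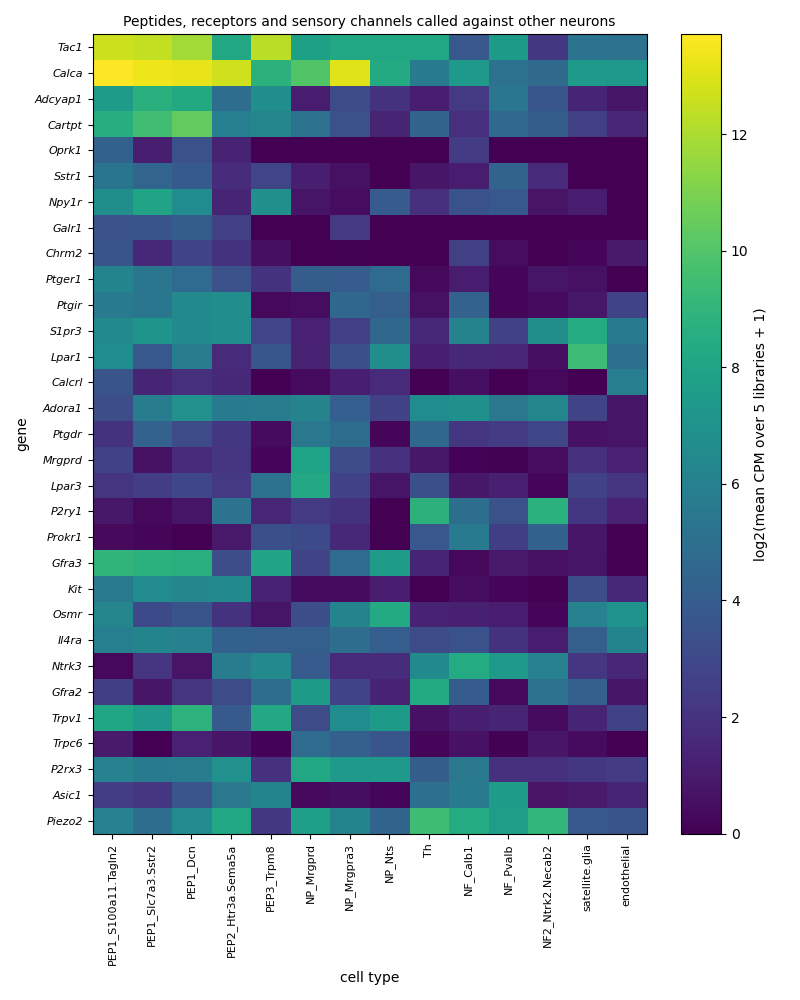
Heat map of 31 peptide precursors, receptors and channels called different between PEP1_S100a11.Tagln2 and the other neurons, in the 14 annotated cell types. Rows are genes, columns are cell types, and colour gives log2(mean CPM over the 5 libraries + 1). Gfra3 (496 CPM in the type, 70.4 CPM in other neurons) is an example called higher that is also strong in the other PEP1 types, and P2ry1 (0.845 against 57.0 CPM) is one called lower.

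Channels for heat, acid, ATP and touch were called higher in 1 and lower in 5 of 17 tested genes (median -0.64). Trpv1, the channel opened by capsaicin and noxious heat, stood at 219, 288, 358, 266 and 247 CPM in libraries A to E against 46.4 to 80.7 CPM (2.18 ± 0.16, 1.28 with types counted equally). The mechanically gated channel Piezo2 stood at 46.5, 90.0, 57.9, 64.3 and 72.7 CPM against 207 to 269.9 CPM (-1.70 ± 0.14), so the groups were apart in the opposite direction. The ATP receptor P2rx3 stood at 66.3 ± 20.9 CPM against 163 ± 18.6 CPM (-1.22 ± 0.17), but the call was lost with types counted equally (-0.38). Asic1 and Trpc6 were called lower from low levels of 4.62 ± 2.84 and 0.952 ± 0.985 CPM, against 20.4 ± 4.73 and 12.8 ± 0.944 CPM, and Asic1 was not called without the cells above 10 percent mitochondrial UMIs (-1.90). The irritant receptor Trpa1 (21.7 ± 4.16 against 30.4 ± 5.44 CPM) and the acid-sensing channel Asic3 (85.1 ± 53.3 against 37.5 ± 18.6 CPM, with 179.8 CPM in library C) were not called. The cold receptor Trpm8 had too few counts to test (0.582 ± 0.688 CPM).

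Voltage-gated channels were mostly called lower or not at all: of 38 tested, 1 was higher, 14 lower and 23 not called (median -0.88). The one called higher was the calcium channel subunit Cacna2d2, at 92.9, 68.2, 71.5, 85.6 and 98.5 CPM against 20.9 to 30.7 CPM (1.70 ± 0.14). The sodium channel Scn8a, which carries current at nodes of Ranvier, was at 6.64, 8.35, 12.6, 6.01 and 9.22 CPM against 45.9 to 133 CPM (-3.24 ± 0.32). Kcna1, a potassium channel of myelinated axons, was at 6.64, 34.3, 40.0, 19.4 and 45.8 CPM against 145 to 441 CPM (-3.06 ± 0.32, -3.83 with types counted equally). Both fell short of every library of the other neurons. Kcna2 (-1.79 ± 0.20), Kcnd1 (-1.59 ± 0.18), Kcnd3 (-2.83 ± 0.26), Kcnq5 (-1.59 ± 0.28) and Kcnn1 (-1.95 ± 0.24), all potassium channel subunits, were lower in 5 of 5 libraries. Scn1a and Scn4b were near zero (0.343 ± 0.341 and 0.751 ± 0.949 CPM, against 33.8 ± 18.2 and 20.7 ± 8.27 CPM). Further calls were Kcns1, the pacemaker channel Hcn2 (12.5 ± 2.86 against 26.6 ± 9.74 CPM) and Cacna2d3 (5.50 ± 1.14 against 13.2 ± 4.49 CPM). Hcn2 was not called with the library as a block (log2 fold change -0.88), and neither Hcn2 nor Cacna2d3 kept its call when libraries A, B or C were left out (-1.01, -1.02 and -0.97 for Hcn2, -1.19, -1.09 and -1.03 for Cacna2d3), nor Hcn2 without library E (-1.11) or without the cells above 10 percent mitochondrial UMIs (-0.82). Scn4b was not called without those cells either (-5.00). The nociceptor sodium channels Scn9a (218 ± 68.5 against 255 ± 42.7 CPM), Scn10a (194 ± 29.1 against 189.5 ± 12.2 CPM) and Scn11a (81.2 ± 20.4 against 169 ± 18.2 CPM) were not called.

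The type carried the vesicular glutamate transporter of most sensory neurons and hardly any of the others. Slc17a6 stood at 201, 171, 154, 186 and 172 CPM in libraries A to E, close to the 152 ± 16.2 CPM of other neurons. Slc17a7 was at 0.594 ± 0.672 CPM, Slc17a8 at 0 in 5 of 5 libraries and tyrosine hydroxylase (Th), the first enzyme of catecholamine synthesis, at 0.569 ± 1.00 CPM, against 44.9 ± 14.5, 6.72 ± 1.82 and 70.3 ± 35.9 CPM. These 3 genes had a UMI in 18.2, 11.7 and 20.5 percent of the pooled neurons, below the limit of 25 percent, so 0 of the 4 tested transporters and enzymes were called, with a list median of -6.03 in the fit and -4.89 with genes at 0 put at their bound.

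Transcription factors of sensory lineages gave 1 higher and 5 lower calls of 24 tested (median -0.68). Zeb2, a zinc finger and homeobox factor, stood at 106, 84.9, 91.5, 79.6 and 70.1 CPM against 13.7 to 25.8 CPM (2.22 ± 0.17), with no overlap. Casz1 was at 9.94 ± 5.89 CPM against 89.6 ± 11.1 CPM (-2.89 ± 0.21), Bhlha9 at 7.13 ± 2.72 against 28.8 ± 7.68 CPM (-2.03 ± 0.24) and Zfp804a at 4.03 ± 0.885 against 18.2 ± 5.45 CPM (-2.13 ± 0.27). Pou4f2 and Zfp521 were down to 1 UMI each, and the Pou4f2 call was lost without the cells above 10 percent mitochondrial UMIs (log2 fold change -6.11). Factors shared by most sensory neurons were not called, among them Klf7 (484 ± 35.2 against 359 ± 27.1 CPM), Tlx2 (265 ± 36.5 against 256 ± 23.2 CPM), Pou4f1 (211 ± 36.3 against 206 ± 17.7 CPM), Isl2 (188 ± 37.0 against 329 ± 36.4 CPM) and Tlx3 (173 ± 9.58 against 162 ± 15.2 CPM).

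The gene families behind the type's name had members called in both directions. Over all genes tested, 3.77 percent were called higher and 4.44 percent lower. Of 16 S100 and annexin genes tested, 3 were called higher and 2 lower (median -0.12). S100a11 had a log2 fold change of 2.51 ± 0.16 and S100a1 one of 1.32 ± 0.18 (54.4 ± 17.6 CPM against 22.9 ± 2.69 CPM). Anxa4 was called from 17.4 ± 7.99 CPM against 8.25 ± 1.47 CPM, and lost the call without a filter on low counts (0.97), without library A (0.95), B (1.09) or E (0.86) and with types counted equally (0.20). S100b stood at 54.8, 121, 128, 148 and 175 CPM against 496 to 1027 CPM (-2.43 ± 0.23, -3.21 with types counted equally) and S100a4 at 6.41 ± 2.48 CPM against 25.1 ± 4.30 CPM (-1.80 ± 0.22). S100a6 was at 4154 ± 543 CPM against 4356 ± 391 CPM and not called, nor was S100a10 (2009 ± 263 against 1574 ± 162 CPM), its partner Anxa2 (1317 ± 363 against 1460.0 ± 52.4 CPM) or Anxa5 (1654 ± 166 against 2005 ± 207 CPM).

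Calls among the relatives of Tagln2 likewise went in both directions. Of 32 actin-binding and related genes tested, 2 were called higher, 4 lower and 26 not called (median 0.14). Tagln2 had a log2 fold change of 1.89 ± 0.15 and Ezr, the ezrin that links actin to the membrane, one of 1.49 ± 0.14 (46.1 to 70.5 CPM against 17.6 to 24.7 CPM). Tagln3, the neuronal transgelin, stood at 267, 139, 144, 214 and 193 CPM in libraries A to E against 306 to 546 CPM (-1.02 ± 0.19). It was lower in 5 of 5 libraries, though the call was lost without library B (-0.93) or C (-0.84) and the value was -1.65 with types counted equally. Tropomyosin 1 (Tpm1, -1.15 ± 0.12, -0.86 and not called with types counted equally), alpha-actinin 1 (Actn1, -1.77 ± 0.19) and the capping protein Capg (-2.05 ± 0.30) were the other lower calls. Thymosins, profilins, cofilins and actins were not called, for example Tmsb10 at 7647 ± 2096 against 7026 ± 868 CPM and Actb at 1806 ± 430.1 against 1904 ± 87.6 CPM.

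Intermediate filament genes gave 2 higher and 4 lower calls of 7 tested (median -1.37). Neurofilaments, which are built up in large myelinated axons, were low: Nefh stood at 116, 155, 209, 136 and 184 CPM against 628 to 1568 CPM (-2.68 ± 0.22), Nefl at 874 ± 184 CPM against 2586 ± 623 CPM (-1.50 ± 0.17), Nefm at 426 ± 123 CPM against 1241 ± 343 CPM (-1.48 ± 0.20) and Ina at 18.6 ± 5.88 CPM against 53.6 ± 6.73 CPM (-1.37 ± 0.18). Vimentin (Vim) stood at 246, 205, 274, 208 and 179 CPM against 46.8 to 80.0 CPM (1.89 ± 0.15), above every library of the other neurons. Syncoilin (Sync) was called from 7.69 ± 3.98 CPM against 3.68 ± 0.638 CPM, but not without library A (1.07), D (0.83) or E (1.19) or with types counted equally (0.70). Peripherin (Prph), the filament of small sensory neurons, was at 4908 ± 158 CPM against 4509 ± 313 CPM and not called.

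Genes known from axon injury and from acute activation were next, since dissociation severs axons and stimulates cells. Of 12 injury genes tested, 5 were called higher and 0 lower (median 0.86). Gap43, a growth cone protein, stood at 1510.0, 986, 909.8, 1167 and 1150.0 CPM against 303 to 429.8 CPM (1.69 ± 0.15, 1.06 with types counted equally). Stmn4 (1.48 ± 0.15), the zinc finger factor Klf6 (1.45 ± 0.16) and Sox11 (1.25 ± 0.14) were called too, and all 3 calls were lost with types counted equally (0.57, 0.90 and 0.96). Tes was called at 21.3 ± 7.78 CPM against 11.9 ± 1.79 CPM, close to the 2-fold limit, and 6 alternatives took it below: 0.99 with RLE size factors, 0.95 without a filter, 0.99 in DESeq2, 0.996 without library D, 0.80 without library E and 0.31 with types counted equally. Atf3, the most widely used injury marker, was at 218 ± 37.5 CPM against 142 ± 20.6 CPM and not called, and Sprr1a had too few counts to test. Of 18 immediate early genes, 3 were called higher and 1 lower (median 0.73), with Klf4 at 39.8, 71.0, 45.2, 42.6 and 51.1 CPM against 13.8 to 17.9 CPM (1.78 ± 0.14) and Ier3 at 21.9 ± 10.7 CPM against 66.1 ± 6.61 CPM (-1.50 ± 0.20). Egr1 and Zfp36 were called at 101 ± 26.8 and 16.6 ± 4.60 CPM, and both calls were lost without library A (0.92 and 0.93) and with types counted equally (0.51 and 0.62), that of Egr1 also without a filter (0.96) or library E (0.97). Fos (420.2 ± 23.4 against 262 ± 37.7 CPM) and Jun (589 ± 105 against 333 ± 53.1 CPM) were not called.

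The second comparison set the type against PEP1_Slc7a3.Sstr2, the type with the most similar profile (342 cells). Both share the peptidergic program, so the question was which genes tell these neighbours apart. The type had Lef1, Etv1, Tmem233, Gna14 and Gfra1, which PEP1_Slc7a3.Sstr2 had at low levels or hardly at all, and lacked Pde1a, Gpr26, nearly all of Slc7a3 and most of Sstr2 and Gal. Of 9322 genes tested, 340 (3.65 percent) were called higher in the type and 354 (3.8 percent) lower. Both this and the next comparison use the same sums of the type as the first one.

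Lef1 was the clearest of these, at 22.7 CPM or more in every library of the type and 3 UMIs in all of PEP1_Slc7a3.Sstr2 (115-fold higher, counting interval 38.9 to 562; log2 fold change 6.61 ± 0.41, 8.65 without library E). Tmem233, a small membrane protein, stood at 146, 201, 178, 209.6 and 194 CPM in libraries A to E against 1.13 to 10.7 CPM (4.73 ± 0.22). Etv1, a factor of the ETS family, stood at 81.3, 63.1, 66.3, 101 and 83.0 CPM against 0 to 5.20 CPM (4.86 ± 0.28, 5.60 without library E). In both genes the ranges were far apart, although the pooled other neurons were not low (323 ± 43.3 and 67.6 ± 17.0 CPM). Both were named for large changes with the same sign in every library, so the gap follows in part from the choice. Traf3ip3 (5.21 ± 0.36, 6.36 without library D) and Cldn9 (5.08 ± 0.30) set the type apart here as well. The keratin Krt27 (28.7 ± 8.40 CPM, 4.87 ± 0.38, 5.79 without library E), Mctp1 (26.1 ± 14.4 CPM, 4.87 ± 0.40), the junction protein gene Cgnl1 (12.7 ± 5.13 CPM, 4.83 ± 0.40), the zinc finger gene Plagl1 (32.2 ± 2.51 CPM, 4.57 ± 0.28) and the G protein-gated potassium channel Kcnj3 (17.6 ± 1.82 CPM, 4.52 ± 0.32) completed the 10 largest, and PEP1_Slc7a3.Sstr2 averaged 0.401 (Cgnl1) to 1.42 CPM (Plagl1) for these 5. Mctp1 and Cgnl1 were lowest in library A of the type (4.98 and 4.98 CPM).

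The genes called lower began with ones the type lacks. No UMI of Pde1a, a calcium-activated phosphodiesterase, was counted in the type, against 45.7 ± 20.7 CPM in PEP1_Slc7a3.Sstr2 (at least 152-fold lower), and none of the orphan receptor Gpr26, against 10.3 ± 2.39 CPM (at least 33.9-fold lower). Slc7a3, a transporter of cationic amino acids that gives the neighbour its name, was 123-fold lower (41.8 to 598). Sstr2, its other namesake, stood at 4.98, 3.25, 6.31, 5.55 and 4.74 CPM in the type against 61.8 to 80.6 CPM (-3.86 ± 0.19). With so few UMIs in the type, ratios with counting intervals were 99.9-fold (27.4 to 829) for the netrin Ntn5, 110.0-fold (30.1 to 909) for Ifitm1, 93.0-fold (16.4 to 3700.0) for Lemd1, 59.9-fold (16.3 to 498) for the adenylyl cyclase Adcy7 and 49.0-fold (16.5 to 240.0) for Btbd11. Ly6e was at 0.647 ± 0.9 CPM against 59.2 ± 15.3 CPM (-5.79 ± 0.37, -6.78 without library E) and 1500009L16Rik at 0.396 ± 0.544 CPM against 29.1 ± 6.99 CPM (-5.46 ± 0.38, -6.08 without library E).

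Of 7 precursors tested 0 were called higher and 2 lower (median 0.21, all genes -0.01). Gal stood at 219, 147, 105, 216 and 192 CPM in libraries A to E of the type against 1212 to 1582 CPM (-3.04 ± 0.18), and Adcyap1 at 202, 134, 177, 251 and 174 CPM against 320.5 to 516 CPM (-1.14 ± 0.16). No library of the type reached the range of its neighbour for either gene, while Calca (13440.0 ± 2504 against 10480.0 ± 1498 CPM) and Tac1 overlapped. Of 14 processing genes, Rab27a was called higher (1.91 ± 0.19) and Chgb, chromogranin B, lower (-1.19 ± 0.19), with a median of 0.09.

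Growth factor and cytokine receptors gave 3 higher and 1 lower call of 16 (median 0.18). The GDNF receptor Gfra1 stood at 24.9, 43.1, 28.4, 30.5 and 35.0 CPM against 2.26 to 4.55 CPM (3.25 ± 0.22) and Osmr at 54.8, 87.2, 95.7, 61.1 and 72.4 CPM against 7.33 ± 2.42 CPM (3.31 ± 0.21). Il6st, which encodes gp130, the partner of Osmr in signalling, was called as well (1.30 ± 0.17), and Kit was lower (-1.12 ± 0.17). In both Gfra1 and Osmr the ranges were far apart. Of 22 G protein-coupled receptors, 6 were called higher and 5 lower (median 0.23): Oprk1, Sstr1, Adra2c, Chrm2 (2.48 ± 0.34), Lpar1 (2.81 ± 0.26) and Calcrl (2.64 ± 0.31) were higher, and Sstr2, Npy1r (-1.16 ± 0.13), Adora1 (-2.58 ± 0.19), Ptger4 (-1.20 ± 0.17) and Ptgdr (-2.24 ± 0.30) lower. Oprk1 had 1.26 ± 0.983 CPM in PEP1_Slc7a3.Sstr2 (3.78 ± 0.38, 4.66 without library E). The Sstr1 call (1.04 ± 0.22, higher in 4 of 5 libraries) was lost without library B (0.91), C (0.96) or E (0.93) and without the cells above 10 percent mitochondrial UMIs (0.97), and that of the adrenergic receptor Adra2c (1.24 ± 0.29) without library E (1.05).

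Among channels, Asic3 (1.36 ± 0.28) and Piezo2 (1.32 ± 0.21) were higher of 11 sensory channels tested and 0 were lower (median 0.05), and the Asic3 call was lost without library B (1.39). Voltage-gated channels gave 3 higher and 8 lower calls of 31 (median 0.01). Kcnk2, a two-pore leak potassium channel, stood at 14.9, 13.4, 9.47, 16.6 and 12.1 CPM in the type against 91.0 to 130.4 CPM (-3.03 ± 0.17), and the sodium channel Scn3a at 1.07 ± 0.682 against 14.4 ± 4.65 CPM (-3.47 ± 0.35). The potassium channels Kcnq5 (-2.79 ± 0.27), Kcnc4 (-2.35 ± 0.27) and Kcnc1 (-1.19 ± 0.15) and the T-type calcium channel Cacna1h (-1.93 ± 0.41, not called without library E, -1.94) were called lower too. Kcna1 (2.04 ± 0.37), Scn8a (1.90 ± 0.30) and the subunit Scn2b (1.33 ± 0.31, not called without library B, 1.36, or E, 1.08) were higher. So Kcna1 and Scn8a, low against pooled neurons, were lower still in this neighbour.

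Of 14 lineage factors Isl2 (1.29 ± 0.14) and Etv1 were called higher and Pou4f3 (-3.40 ± 0.41) lower (median 0.10). S100b was higher (1.39 ± 0.26) and S100a4 (-2.32 ± 0.24) and S100a13 (-1.11 ± 0.15) lower among 14 S100 and annexin genes (median 0.001). Of 30 actin-related genes, Tagln2 (1.96 ± 0.14), which is in the type's name, was higher and Tagln3 (-1.12 ± 0.16) lower (median -0.05). These counts are near the shares over all genes tested (3.65 percent higher, 3.8 percent lower) and say nothing about the list. Intermediate filaments gave 0 calls of 7 (median 0.09). Gadd45a (1.21 ± 0.17) and Tes (1.68 ± 0.25) were higher and Stmn4 (-1.28 ± 0.16) and Csf1 (-2.15 ± 0.23), the macrophage growth factor, lower of 9 injury genes (median -0.60). Of 15 immediate early genes Klf4 (1.14 ± 0.19) was higher and Ier3 (-2.09 ± 0.25) lower (median -0.22). The only transporter tested, Slc17a6, was not called.

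The third comparison was with PEP1_Dcn, the next most similar type, whose 4, 35, 29, 28 and 67 cells in libraries A to E leave library A thin. The type was set off by Lgals3, Comp, Crip1, Plxnc1 and Osmr, which PEP1_Dcn had at low levels. It lacked Tmem8c, Tmc3 and nearly all of Mrap2 and Th, and had a small part of the Gal and Trpa1 of PEP1_Dcn. Of 9064 genes tested, 245 (2.7 percent) were called higher and 416 (4.59 percent) lower.

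Lgals3, the sugar-binding protein galectin-3, stood at 96.2, 205, 134, 130.0 and 131 CPM in libraries A to E against 0 to 6.26 CPM (5.53 ± 0.32). Crip1, a LIM domain protein, stood at 835, 372, 268, 454 and 477 CPM against 3.42 to 43.8 CPM (4.47 ± 0.35), with library A of the type highest. Neither gene overlapped, though Crip1 was also high in satellite glia (942 CPM), as was Lgals3 (284 CPM). Here too the genes were named for large changes with the same sign in every library, so the lack of overlap follows in part from the choice. Agt, which encodes angiotensinogen, was 113-fold higher (counting interval 19.9 to 4490.0) and the membrane protein Marveld3 stood at 10.0 ± 2.87 CPM, each with 1 UMI in PEP1_Dcn. Comp (5.69 ± 0.54), the calpain Capn9 (60.5 ± 31.6 CPM, 4.76 ± 0.40), the cytochrome P450 Cyp2j12 (29.9 ± 12.5 CPM, 4.08 ± 0.47), Lef1 (3.93 ± 0.31), the metalloproteinase inhibitor Timp3 (32.4 ± 20.7 CPM, 3.81 ± 0.55) and Gna14, a G protein alpha subunit of the Gq family (104 ± 9.84 CPM, 3.76 ± 0.31), made up the 10 largest. Of these, Capn9 was highest in library C (116 CPM) and Timp3 in library A (66.4 CPM), and satellite glia had Timp3 at 956 CPM and endothelial cells at 1453 CPM.

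Mrap2, which escorts melanocortin receptors, was the largest measured loss. It had 2 UMIs in the type against 82.7 to 133 CPM in PEP1_Dcn (544-fold lower, counting interval 150.0 to 4500.0). Tmem8c, the myomaker of muscle cell fusion, had no UMI in the type against 51.3 ± 19.7 CPM (at least 141-fold lower), nor had Tmc3 (at least 85.0-fold lower) or Gdpd2 (at least 31.5-fold lower). The factor Nhlh2 was 167-fold lower (45.7 to 1380.0), Adcy7 135-fold (36.9 to 1120.0) and the sugar transporter Slc2a13 109-fold (19.1 to 4340.0). Slc7a3 had 3 UMIs in the type (0.198 ± 0.272 CPM) against 29.2 ± 23.7 CPM. Th stood at 0, 2.32, 0, 0 and 0.527 CPM in the type against 64.5 to 138 CPM (-6.93 ± 0.40, -8.13 without library B), and St3gal5, which makes the ganglioside GM3, at 1.15 ± 1.42 CPM against 123 ± 45.2 CPM (-6.48 ± 0.41, -7.34 without library E).

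Of 7 peptide precursors 0 were called higher and Gal (-3.81 ± 0.24) and Cartpt (-1.85 ± 0.27) lower (median -0.41, all genes 0.015). Gal stood at 1642 to 3276 CPM in PEP1_Dcn, so the type's highest library (219 CPM) was far below its lowest. Of 14 processing genes Rab27b was called higher (1.48 ± 0.26) and the amidating enzyme Pam lower (-1.19 ± 0.25), with a median of -0.06, and the Pam call was lost without library D (-1.07) and B (-1.14). Of 12 sensory channels, Asic3 was higher (2.37 ± 0.39, 2.97 without library B) and Trpa1, the receptor for irritants such as mustard oil, lower at 21.7 ± 4.16 CPM against 124 ± 65.0 CPM (-2.38 ± 0.38), with a list median of -0.41. Trpv1 (275 ± 52.4 against 459 ± 64.7 CPM) was not called.

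Receptors and channels gave further differences. Of 16 growth factor and cytokine receptors, 3 were called higher, among them Osmr (2.97 ± 0.23) and Gfra1 (1.44 ± 0.23), and Ngfr (-1.34 ± 0.19) and Ntrk2, the BDNF receptor, lower (median 0.10). Ntrk2 stood at 4.55 ± 4.20 CPM against 81.0 ± 23.2 CPM (-4.64 ± 0.35, -6.77 without the cells highest in satellite glia markers), and satellite glia had it at 579 CPM. Of 22 G protein-coupled receptors Sstr1 (1.70 ± 0.25), Ptger1 (1.72 ± 0.24) and Calcrl (3.17 ± 0.45) were higher, and the cannabinoid receptor Cnr1 (-2.47 ± 0.21), the adrenergic receptor Adra2a (-3.91 ± 0.46), Adora1 (-3.77 ± 0.20) and the nociceptin receptor Oprl1 (-2.47 ± 0.39) lower (median -0.11). Cnr1 stood at 26.6, 14.8, 17.9, 26.8 and 15.5 CPM in the type against 80.1 to 147 CPM, without overlap. Voltage-gated channels gave 1 higher and 5 lower calls of 29 (median -0.30). Kcnk2 (-3.82 ± 0.18, against 166 to 229 CPM), Scn3a (-3.75 ± 0.33), Scn2b (-1.48 ± 0.21) and Kcnc1 (-1.20 ± 0.17) were lower, and Scn10a was called higher at the 2-fold limit, a call that was lost with RLE size factors (0.996), without a filter (0.99), without the sum of 4 cells (0.90), without the cells highest in satellite glia markers (0.95) and without library A (0.99), C (0.94), D (0.97) or E (0.97).

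Of 14 lineage factors Etv1 (1.61 ± 0.21), Tlx3 (1.21 ± 0.20) and Isl2 (1.04 ± 0.16) were higher and 0 lower (median 0.52), with Isl2 not called without library C (0.86) or E (0.997). Of 2 transmitter genes tested, Th was lower and Slc17a6 (177 ± 17.8 against 280.1 ± 17.1 CPM) was not called (median -3.78). Ahnak, a large partner of the S100A10 and annexin A2 complex, was higher (1.64 ± 0.27), as was Anxa11 (1.37 ± 0.25), while S100a4 (-1.49 ± 0.26) and S100b (-1.43 ± 0.28, not called without library B, -1.16) were lower among 14 S100 and annexin genes (median 0.48). Tagln2 (2.60 ± 0.16) was again higher, and Tagln3 (-1.86 ± 0.24) and fascin (Fscn1, -2.48 ± 0.38) lower, among 29 actin-related genes (median 0.03). Ina was the 1 lower call of 7 intermediate filaments (-1.52 ± 0.20, median -0.38). Of 10 injury genes Csf1 was lower (-1.50 ± 0.28) and Tes higher, though not without library B (1.35), D (1.29) or E (1.28), with a list median of 0.34, and of 14 immediate early genes Klf4 was higher (1.26 ± 0.25, 1.02 and not called without library E) and Ier3 lower (-2.46 ± 0.32, median 0.17).

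Summed markers of the other neuron classes were lower in the type than in the pooled other neurons, although single markers often were not called. That pool holds the classes these markers name, so lower sums follow in part from the comparator. Markers of Mrgprd nociceptors summed to 151, 259, 174, 163 and 159 CPM in libraries A to E, highest in library B, against 627 ± 74.8 CPM in other neurons, and 4 of 6 were called lower (median -4.05), Mrgprd, Lpar3, Gfra2 and Agtr1a. What remained was mostly Plxnc1, a semaphorin receptor at 86.0 ± 5.77 CPM, called higher than in PEP1_Slc7a3.Sstr2 (1.93 ± 0.15) and PEP1_Dcn (3.62 ± 0.28), and Scn11a. The 3 markers of Mrgpra3 neurons summed to 2.50 ± 1.68 CPM against 23.8 ± 8.00 CPM and the 6 of Nts neurons to 93.3 ± 31.8 CPM against 358 ± 187 CPM, the latter mostly Osmr, the 1 member called higher. The 1 Mrgpra3 marker tested was not called, and 0 of the Nts markers were called lower (medians -4.16 and -3.19). Markers of Th neurons summed to 68.7 ± 18.0 CPM against 385 ± 81.1 CPM, nearly all of it Piezo2, with 3 of 5 called lower, Slc17a8 at 0 and a median of -6.53 (-5.02 with genes at 0 at their bound). The 4 markers of Trpm8 neurons summed to 1.47 ± 0.72 CPM against 11.7 ± 4.10 CPM, with 0 of the 2 tested called (median -3.58). The 8 markers of neurofilament neurons summed to 179 ± 40.2 CPM against 1401 ± 441 CPM, and Nefh, Pvalb, Ntrk3, Spp1 and Necab2 were called lower (median -3.84). In PEP1_Slc7a3.Sstr2 and PEP1_Dcn, mean sums were below the type for Mrgprd markers (162 and 97.7 CPM), Nts markers (22.2 and 13.9 CPM) and Mrgpra3 markers (0.888 and 0.709 CPM). They were above the type for neurofilament markers (190.5 and 334 CPM) and Trpm8 markers (2.60 and 4.33 CPM). Th markers went both ways (34.3 and 202 CPM).

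The 10 markers summed to 1478, 656, 882, 309.5 and 369 CPM in libraries A to E of the type and to 268 ± 82.8 CPM in other neurons. The other neurons of the same libraries had 170.4, 349, 361, 239 and 224 CPM, so the type was higher in 5 of 5 libraries, by the most in library A and by the least in library D. The most abundant was Apoe, the glial apolipoprotein, at 1264, 468, 615, 148 and 174 CPM (78920.0 CPM in satellite glia), while Cdh19, Sox10 and Lgi4 were at 0 in 5 of 5 libraries. Of 6 markers tested against other neurons, Apoe was called higher and 0 lower (median 0.90). Apoe was called in all 3 comparisons (1.98 ± 0.51, 2.26 ± 0.48 and 3.03 ± 0.47), and Fabp7 against PEP1_Dcn (2.08 ± 0.51). Apoe and Fabp7 are members of the list by which cells high in satellite glia markers were picked, and Apoe was the most abundant of them, so a fall without these cells follows from the choice. Without them, Apoe fell from 534 to 50.0 CPM and Fabp7 from 18.0 to 5.44 CPM, and the Apoe values became 0.28, -0.15 and 0.15, none of them called. Without library A, Apoe had 1.11 against other neurons, 1.47 against PEP1_Slc7a3.Sstr2 and 2.32 against PEP1_Dcn, the first pair not called. The Apoe calls were also lost without library B (2.25 and 2.26), against other neurons without library C (2.07) and with types counted equally (1.58). The Fabp7 call was lost without the PEP1_Dcn sum of 4 cells (2.00) and without library A (2.00) or C (1.99). Satellite glia also express Lpar1, Zeb2, Vim and Crip1 (668, 129, 4936 and 942 CPM). Their calls named above were also made without these cells. The part of satellite glia in the levels of these genes, and in the library A levels of other genes, was not tested.

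Ifit3, with 1937 CPM in satellite glia, was highest in library A too (153, 16.7, 56.8, 83.7 and 23.2 CPM in libraries A to E). Its call against other neurons (1.78 ± 0.46) was lost without the cells highest in satellite glia markers (1.45), without library A (1.19) or C (1.70) and with types counted equally (1.83). Ifit3b (25.1 ± 17.6 CPM, 406 CPM in satellite glia) was called against other neurons (2.14 ± 0.38).

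Markers of further cell types were scarce. Schwann cell markers summed to 187 ± 36.7 CPM against 575 ± 51.0 CPM, mostly Pmp22, which neurons express and which was the 1 of 4 called, lower (-1.65 ± 0.13, list median -0.74). Endothelial markers summed to 74.4 ± 18.4 CPM, nearly all Egfl7, with Cdh5 at 0 and the other 6 below 1 CPM each, and 0 of the 1 tested was called (0.57). Fibroblast markers (1.87 ± 1.56 CPM, Col1a2 most abundant, Pdgfra at 0) had no member with enough counts to test. Macrophage markers (5.77 ± 2.40 CPM, C1qb most abundant, C1qc at 0) had 1 tested and 0 called against other neurons (median 0.66), and pericyte and smooth muscle markers (1.90 ± 2.00 CPM, Rgs5, Myh11 and Cspg4 at 0) 2 tested and 0 called (median -6.83, or -3.81 with Rgs5 at its bound). Against the neighbours, Mbp and Pmp22 were called lower than in PEP1_Slc7a3.Sstr2, and Pmp22 and C1qb (-2.03) lower than in PEP1_Dcn.

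Haemoglobin set library D apart within the type. The 5 erythrocyte markers summed to 3.32, 6.03, 6.31, 1228 and 9.22 CPM in libraries A to E, against 13.7 ± 15.6 CPM in other neurons. In library D itself they summed to 5.33 CPM in other neurons, 4.30 CPM in PEP1_Slc7a3.Sstr2 and 16.7 CPM in PEP1_Dcn, so library D was not high in those groups. Hbb-bs was the most abundant, at 798 CPM in library D and 5.53 CPM or less in the other four, and 0 of the 2 members tested were called (median 4.005). The globin genes are near-identical copies, so their counts may be split between them, and what part they have in other results of library D was not tested.

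The abundant genes of the type mostly varied little between mice. Over the 1728 genes of at least 100 CPM, the median coefficient of variation over 5 libraries was 15.3 percent, and pairs of libraries correlated across genes at r = 0.952 to 0.986, a description in which genes are no independent replicates. Among the 10 genes that varied most, Xist, the RNA of X inactivation, was at 0 in libraries A to C, 461 CPM in D and 503 CPM in E. The other neurons had it at 0 in libraries A to C, 302.7 CPM in D and 281.5 CPM in E. The paper states that the mice were of both sexes, but no label gives the sex of a library, and sex was not tested. Library C was highest for Rnr2 (1245 against 282 to 426 CPM in the other four), the actin-binding advillin of sensory neurons (Avil, 832 against 191 to 351 CPM), phosphofructokinase (Pfkp, 376 against 91.3 to 136 CPM) and the splicing factor Sf3b1 (221 against 68.7 to 84.9 CPM). The other neurons of library C were highest for the same 4 genes, with Rnr2 at 561 against 239 to 482 CPM, Avil at 583 against 385 to 422 CPM, Pfkp at 337 against 203 to 232 CPM and Sf3b1 at 144 against 88.8 to 96.6 CPM, so library C was high outside the type as well. Nmt1 was at 123, 250.5, 324, 73.1 and 81.1 CPM, high in libraries B and C, as in the other neurons (127, 244.5, 283, 76.2 and 92.6 CPM). The chemokine Ccl2 was at 337, 118, 85.2, 346 and 137 CPM, high in libraries A and D and low in the other three. The other neurons had it at 84.72, 65.45, 108.8, 85.49 and 71.49 CPM, without this pattern. Apoe and Hbb-bs are given above.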

How the data were processed

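The deposited values are UMI counts per gene and cell, which the authors made with Cell Ranger against mm10 and filtered and clustered with Seurat. Of 17271 rows, 4 that name no mouse gene (143 UMIs, 6.37e-05 percent) were left out. Counts were summed over the cells of a type within each of 5 libraries, and compared between the type and 3 comparators with edgeR 4.0.16 (filterByExpr, TMM, quasi-likelihood test, Benjamini-Hochberg) in R 4.3.3. Thinning to 10000 UMIs per cell (fixed seed) and exact sign-flip tests ran in Python 3.11.15 (numpy 2.4.6, pandas 2.3.3, scipy 1.17.1). Genes named are S100a11, Tagln2 and Tac1, the 10 largest changes per direction with the same sign in 5 of 5 libraries, the 15 genes of at least 20 CPM most above the next neuronal type, members of 28 gene lists (15 of them marker lists) and the 10 most variable genes of at least 100 CPM; some of these are not reported here. Members and lists were chosen with earlier results of these data known. Alternatives were DESeq2 1.42.0, RLE size factors, no filter, the library as a block, other thresholds, only sums of at least 10 cells, no cells above 10 percent mitochondrial UMIs, leaving out the 10 percent of cells with the highest satellite glia marker share, limma 3.58.1 on types counted equally, and each library left out. Each library was taken as 1 mouse, so sums of the same library are paired, and their deviations correlated at r = 0.0192 to 0.2605 with other neurons, 0.1103 to 0.4006 with PEP1_Slc7a3.Sstr2 and 0.0639 to 0.3236 with PEP1_Dcn. Doublets were not called here.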

Additional observations from a re-analysis of the deposited data

Results flagged for a closer look

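In 39 of 248 groups of 5 libraries, 1 library lay further from the rest than Dixon's limit (gap over range above 0.71), and chance gives this in about 1 in 20 groups. That rate does not hold for all groups here: a gene with UMIs in 1 library must pass the limit, and some genes were named because they vary most between libraries.

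Library C was the highest for many genes: Anxa2 (1947 CPM, others up to 1287), Rnr2 (1245, others up to 425.8), Avil (831.9), Pfkp (376.5), Scn9a (338.7), Sf3b1 (220.9), Asic3 (179.8), Capn9 (115.7), Il4ra (98.86) and Anxa11 (71.52 CPM). It was the lowest for Pcsk1n (3039 CPM, others at least 4158), S100a13 (266.1, others at least 422.4), Npy1r (92.55), Egr1 (53.64), Rab27b (45.23) and S100a1 (23.14 CPM).

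Library D was the highest for Hbb-bs (798.5 CPM), Hba-a1 (189.2 CPM), the erythrocyte markers together (1228 CPM, others up to 9.218) and Sst (1.85 CPM). Library B was the highest for Mrgprd (23.19 CPM), Gfra2 and Nts (21.34 CPM each) and the Mrgprd nociceptor markers together (259.3 CPM, others up to 173.5). Library A was the highest for Galr1 (21.57 CPM) and library E for Spp1 (9.482 CPM).

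The remaining genes were seen with few UMIs: Th (2.319 CPM in library B), Lemd1 (1.659 in A), Ifitm1 and Nppb (1.052 each in C), Ntrk3 and Ramp1 (0.9277 each in B), Klk5 and Dok5 (0.4639 each in B), and Zfp521, Gm11549, Tmem72, Slc2a13 and Pou4f2 (0.2634 each in E).

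The 4 matrix rows that name no mouse gene, not analysed here, held 143 UMIs over all cells and 4 in the type.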

How the results depend on the processing

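Against other neurons, 443 genes were higher with all cells summed and edgeR, and 235 with the 11 types counted equally and limma-trend on log2(CPM + 1). Weights and fit changed together there, and their parts were not told apart. Genes called lower rose from 522 to 912 without the minimum share of cells, since genes seen in few cells then count. The other alternatives kept every number of calls within 1.5 times of the reported one.

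Leaving out 1 library gave 377 to 464 genes higher and 483 to 527 lower against other neurons, 284 to 346 and 291 to 350 against PEP1_Slc7a3.Sstr2, and 181 to 267 and 360.0 to 470.0 against PEP1_Dcn. The log2 ratio of UMIs per cell against other neurons was then -0.61 to -0.33, that of genes detected per cell at equal depth against other neurons 0.00690 to 0.0199, and the share of cells 5.08 to 5.63 percent. With the library as a block, 469 and 514, 352 and 362, and 289 and 448 genes were called. Of the named genes called as reported, Hcn2 alone lost its call there (-0.88, against other neurons). Among named genes not called as reported, gains were looked for in S100a11, Tagln2 and Tac1 alone.

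For Apoe the direction against PEP1_Slc7a3.Sstr2 turned, from 2.26 to -0.148, without the cells highest in satellite glia markers, which were picked by a marker list with Apoe in it, so this follows from the choice of cells. Of 274 gene and comparison pairs looked at, 31 lost a call when some library was left out and 29 under another alternative, beside the Apoe pair that turned. The limit of 10 cells per sum touched PEP1_Dcn alone.

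The results rest on 5 libraries, with 10 cells of the type in library A, and each library was taken as 1 mouse, which the labels do not state. The part of dissociation, ambient RNA and attached glia in the levels was not tested.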
